A study of Homo sapiens with 12 samples.

Results

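N1-methyladenosine (m1A) is a methyl mark on the Watson-Crick face of adenine in RNA. The peaks described here are those m1A peaks that the deposited lists place wholly in coding sequence and inside 1 exon. In each deposited peak list, the transcript rows of a peak were pooled, and a peak was kept where all its rows named coding sequence only and the peak had 1 block. The rule left 24022 of the 81260 peaks of the 6 lists. Neither enrichment, length nor the group of a list entered the rule. The other coding-only peaks, 12837 with more than 1 block, cross exon junctions, and 28117 single-block peaks lay only in 3′ UTR, the untranslated region after the stop codon. Both classes are used below for comparison.

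The lists come from SNU-668, a human gastric cancer cell line, in an erastin-resistant form. Erastin is a compound that blocks cystine import and triggers iron-dependent cell death (ferroptosis). In 3 samples ALKBH3, an m1A demethylase, was knocked down with an shRNA (lists KD1, KD2 and KD3), and 3 samples carried a control shRNA (lists CT1, CT2 and CT3). Both groups share the resistant background. All sample titles also carry the prefix RLS3, which is unexplained and was left uninterpreted. Methylated fragments of mRNA were pulled down with an antibody against m1A, and the 6 matching input samples entered only through the peak calls of the authors. The labels do not say whether a knockdown line is 1 clone, or whether the replicates were separate cultures. The p-values therefore describe only how these lists vary, which may be technical variation.

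The best known m1A sites are in tRNA, where TRMT6 and TRMT61A methylate cytosolic and TRMT61B and TRMT10C mitochondrial molecules. ALKBH1 and ALKBH3 erase the mark, and YTH-domain proteins can bind it. Because m1A blocks normal base pairing, a methylated codon is known to hinder translation, as described for mitochondrial mRNA. Most human coding exons are short, while a few genes hold most of their coding sequence in 1 very long exon or in no more than 1 exon, such as the replication-dependent histones.

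KD1, KD2 and KD3 held 11830, 3922 and 2420 single-exon coding peaks, and CT1, CT2 and CT3 held 1007, 873 and 3970. KD1 had the most and CT2 the fewest, and the groups overlapped through CT3. The log2 difference in means was 1.67, a 3.18-fold difference in geometric mean (exact permutation p = 0.3, two-sided like all tests here, and adjusted p = 0.36 over 6 comparisons), and 1.02 without KD1. At equal list length it was 0.44. The genes that carried them came to 4985, 2466 and 1654 in the knockdown lists, against 759, 616 and 2321 in the control lists (log2 difference 1.41, exact permutation p = 0.2, adjusted p = 0.36), with a log2 difference of 0.47 at equal list length.

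As a share of all peaks of a list, single-exon coding peaks made up 34.1%, 30.0% and 28.6% in KD1, KD2 and KD3, and 20.1%, 17.8% and 26.2% in CT1, CT2 and CT3. All knockdown lists stood above all control lists. The means were 30.9% ± 2.87 for knockdown and 21.4% ± 4.35 for control (SD, n = 3 lists each), a difference of 9.51 percentage points. The exact permutation p of 0.1 is the smallest that 3 lists against 3 can give, and the adjusted p was 0.36. Exon-junction coding peaks took 21.6%, 15.2% and 11.3% of the knockdown lists and 5.90%, 7.48% and 11.5% of the control lists. Their mean share was also higher in knockdown (16.0% against 8.28%, exact permutation p = 0.2), with overlapping groups. A higher knockdown mean was thus not particular to the single-exon class. Single-exon 3′ UTR peaks took 19.6%, 39.0% and 44.0% of the knockdown lists and 57.4%, 59.5% and 44.2% of the control lists. The lists held 34691, 13056 and 8474 peaks for knockdown and 5015, 4894 and 15130 for control. List length moved with the share of single-exon coding peaks except in CT3, which was longer than KD2 and KD3 but had a lower share. When only the 4894 most enriched peaks of each list were used, the difference in share was 6.57 percentage points and the groups still did not overlap (exact permutation p = 0.1). Sequencing depth is not known for these lists, and its part in these values was not tested.

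**Figure D1:**
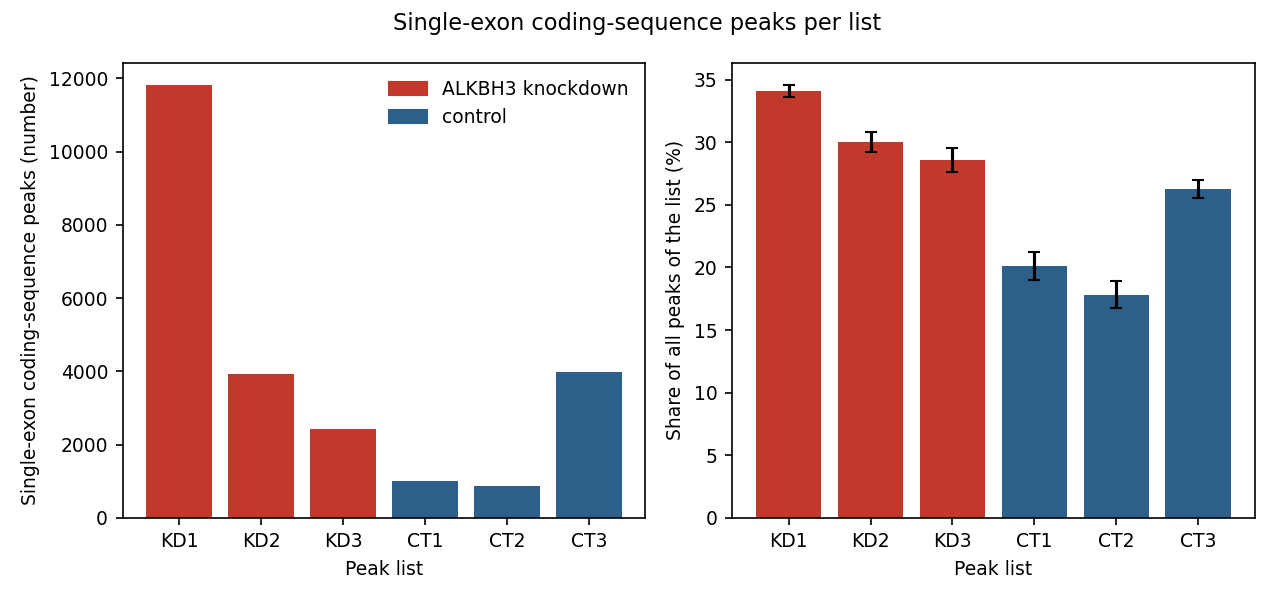
Number of single-exon coding-sequence peaks in each list (left) and their share of all peaks of the list in percent (right), with red bars for ALKBH3 knockdown and blue bars for control and Wilson 95% intervals that cover counting error only. The knockdown shares of 28.6% to 34.1% lie above the control shares of 17.8% to 26.2%, while the numbers of peaks overlap between the groups.

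Among peaks only in coding sequence, 61.2%, 66.4% and 71.7% lay in 1 exon in KD1, KD2 and KD3, and 77.3%, 70.5% and 69.6% in CT1, CT2 and CT3. The groups overlapped, and the difference of -6.03 percentage points did not pass the exact permutation test (p = 0.3, adjusted p = 0.36). It was -3.42 without KD1 and -3.61 without CT1. The median length was 50 nt in all 6 lists. Peaks of 25 nt or less, the step in which the lists are cut, made up 40.9%, 42.2% and 47.1% of the single-exon coding peaks in the knockdown lists, against 48.9%, 43.6% and 41.7% in the control lists. Exon-junction coding peaks were longer, with medians of 175, 125 and 100 nt in the knockdown lists, against 80.5, 100 and 125 nt in the control lists. Single-exon coding peaks were shorter than these in 6 of 6 lists, with a mean difference of -67.6 nt (two-sided exact sign-flip test, p = 0.03125, the smallest that 6 lists allow). After adjustment over the 11 within-list comparisons made, 6 of them added after values had been seen, that p was 0.0688, so it did not pass 0.05. The number of blocks entered the rule, and length is tied to it.

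The label "single exon" was checked against the lengths of the annotated transcripts. A total of 49 peaks (0.204%), in 40 genes, were longer than the longest transcript listed for them. Of the 233 peaks over 1000 nt, 40 (17.2%) were of this kind. A peak of 2150 nt in RPS16, a protein of the small ribosomal subunit, was listed in CT1 and CT3 although the longest listed RPS16 transcript has 643 nt. In RXRA, a nuclear receptor for retinoids, KD1 and KD2 listed peaks of 4690 and 4640 nt against a transcript of 1846 nt. The longest of all, 7350 nt in KD1, lay in H2AFY, which encodes the histone variant macroH2A1, whose longest listed transcript has 2789 nt. The 49 are only a minimum for peaks that reach beyond 1 exon, since a peak shorter than its transcript can do so too. In PKM, with a longest listed transcript of 2674 nt, peaks of 3075 nt in KD3 and 2725 nt in CT3 were counted. Overlapping PKM peaks of 2400 nt in KD2 and 2225 nt in CT1 were not. These genes were chosen after their values were seen. None of the 24022 peaks contained a gap between the blocks of any multi-block peak. The 49 peaks longer than their transcripts held no such gap either, so this comparison cannot tell whether a peak reaches beyond its exon.

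The enrichment of a peak is the log2 fold change that the authors deposited, read here as IP over input. Its median over single-exon coding peaks was 1.98, 2.05 and 1.90 in KD1, KD2 and KD3, and 1.59, 1.93 and 1.86 in CT1, CT2 and CT3. CT1 was lowest, and the remaining control lists lay close to the knockdown lists. The difference of 0.19 did not pass the exact permutation test (p = 0.2, adjusted p = 0.36). It was 0.084 without CT1, 0.053 with at least 4-fold enrichment and 0.76 at equal list length. Both of the latter settings select on enrichment itself. Equal list length keeps the 4894 most enriched peaks, all of CT2 but a small part of the 34691 of KD1. The value of 0.76 is therefore no measure of a larger difference. By rank within a list, the mean of the medians differed by 0.72 percentile points (exact permutation p = 0.9). At least 4-fold enrichment was reached by 48.7%, 53.0% and 45.2% of these peaks in the knockdown lists, against by 29.3%, 46.5% and 42.6% in the control lists.

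Single-exon coding peaks were next set against 3′ UTR peaks of the same list. The 3′ UTR medians were 2.19, 2.67 and 2.42 in KD1, KD2 and KD3, and 1.65, 2.53 and 2.40 in CT1, CT2 and CT3. The coding median was lower in 6 of 6 lists, with a mean difference of -0.42 (SD 0.23, from -0.62 in KD2 to -0.06 in CT1). The exact sign-flip p was 0.03125, again the smallest possible, and 0.0688 after adjustment over the 11 comparisons, which does not pass 0.05. Knockdown and control lists did not separate in this difference, with means of -0.45 and -0.40 (exact permutation p = 0.7). Against exon-junction coding peaks the difference averaged -0.03, with 4 lists lower and 2 higher (exact sign-flip p = 0.4375, adjusted p = 0.481).

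**Figure D2:**
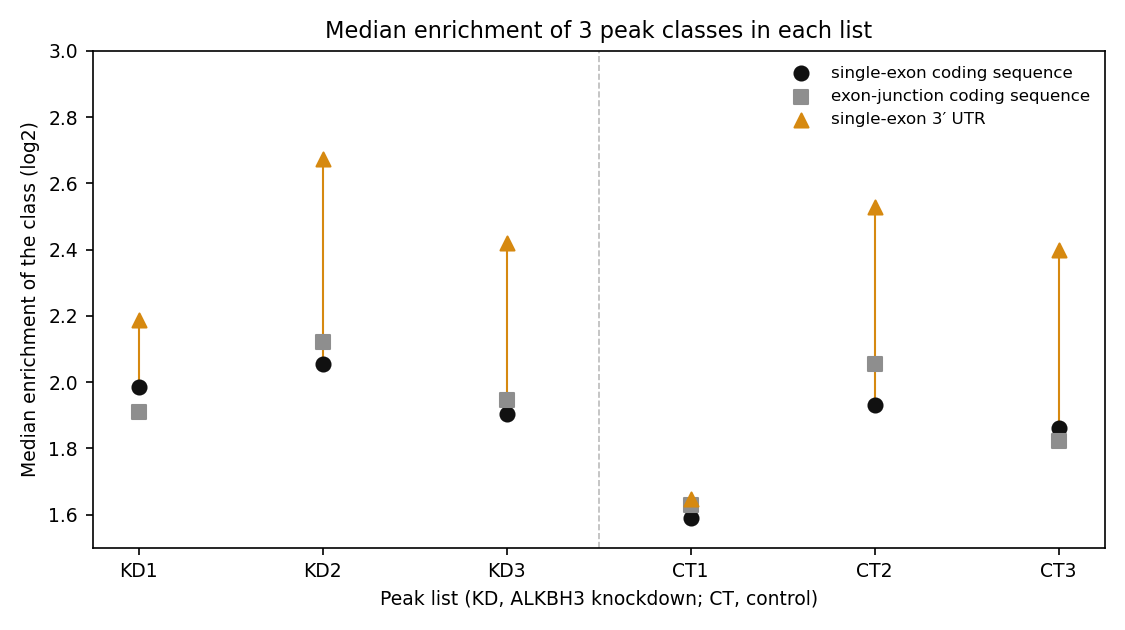
Median log2 enrichment (vertical axis, which does not start at 0) of single-exon coding, exon-junction coding and single-exon 3′ UTR peaks in each of the 6 lists, knockdown left and control right of the dashed line. The 3′ UTR median lies above the coding median in every list, by 0.06 in CT1 and by 0.20 to 0.62 elsewhere, while both coding classes stay within 0.13 of each other.

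Comparisons matched for length or gene were added after values had been seen. Among peaks of 25 nt or less, the coding medians were 1.93, 1.95 and 1.82 in the knockdown lists, against 1.52, 1.92 and 1.79 in the control lists. The matching 3′ UTR medians were 2.09, 2.25 and 2.11 in the knockdown lists, against 1.65, 2.29 and 2.17 in the control lists. The mean difference was -0.27, with 6 of 6 lists lower (exact sign-flip p = 0.03125, adjusted p = 0.0688). Longer peaks kept this order in 5 of 6 lists, but in CT1 the coding median was 1.64 against 1.58 for 3′ UTR peaks over 100 and up to 300 nt, and 1.29 against 1.17 for those over 300 nt. These classes were not tested. Genes with peaks of both classes in a list numbered 1996, 809 and 512 in KD1, KD2 and KD3, and 241, 166 and 1011 in CT1, CT2 and CT3. In 70.0%, 75.6% and 76.0% of these genes in the knockdown lists, and in 65.6%, 81.9% and 74.2% in the control lists, the mean enrichment of the coding peaks was below that of the 3′ UTR peaks. The median within-gene difference averaged -0.35 over the lists (6 of 6 lower, exact sign-flip p = 0.03125, adjusted p = 0.0688). Against exon-junction peaks of the same genes it was -0.04 (6 of 6 lower, same p and adjusted p), but -0.00033 at equal list length (exact sign-flip p = 0.969) and -0.016 with at least 4-fold enrichment (exact sign-flip p = 0.375).

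The transcripts that carry single-exon coding peaks had a median length of 3207, 3244 and 3086 nt in KD1, KD2 and KD3, and of 2515, 2473 and 2800 nt in CT1, CT2 and CT3. Knockdown lists stood above control lists (exact permutation p = 0.1, the smallest possible, outside the 6 adjusted comparisons). The same held for transcripts with exon-junction coding peaks, with mean medians of 3191 nt in knockdown and 2580 nt in control lists (exact permutation p = 0.1). For single-exon 3′ UTR peaks these means were 3890 and 3475.5 nt, with overlapping groups (exact permutation p = 0.2). The difference was thus not particular to the single-exon coding class. Within a list, transcripts with single-exon coding peaks differed from those with exon-junction coding peaks by 1.54 nt on average (4 lists higher, 2 lower, exact sign-flip p = 0.969, adjusted p = 0.969).

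KD1 stood apart in how its peaks met those of other lists. Of its single-exon coding peaks, 15.7% shared at least 1 base with a peak of any other list, against 52.4% and 58.5% in KD2 and KD3 and 58.4%, 71.4% and 59.7% in CT1, CT2 and CT3. In the other direction, KD1 peaks of any kind covered 46.4% of the single-exon coding peaks of KD2 and 62.5% of those of CT2, the lowest and highest of the 5 lists. Only 16.9% and 15.3% of the peaks of KD2 and CT2 met a KD1 peak that was itself single-exon and coding. Between KD2 and KD3, 10.8% of the KD2 peaks and 23.0% of the KD3 peaks met any peak of the other, and between CT1 and CT2 the shares were 10.6% and 12.1%. Overlapping peaks were counted from each single-exon coding peak over all pairs of lists. Of them, 55.6% belonged to the same class, 21.9% crossed an exon junction, 22.5% had another mix of regions and 0% were 3′ UTR peaks. An overlap within the class is counted from both sides, so its share over distinct overlaps is lower. The 0% follows largely from the region rule. A position could be a single-exon coding peak in one list and part of a longer peak in another. The share overlapped by another list, minus that of exon-junction peaks, averaged -2.51 percentage points (3 lists lower and 3 higher, exact sign-flip p = 0.4375, adjusted p = 0.481). With a reciprocal overlap of at least 50% it was -5.27, with 6 of 6 lists lower (exact sign-flip p = 0.03125, adjusted p = 0.0573).

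**Figure D3:**
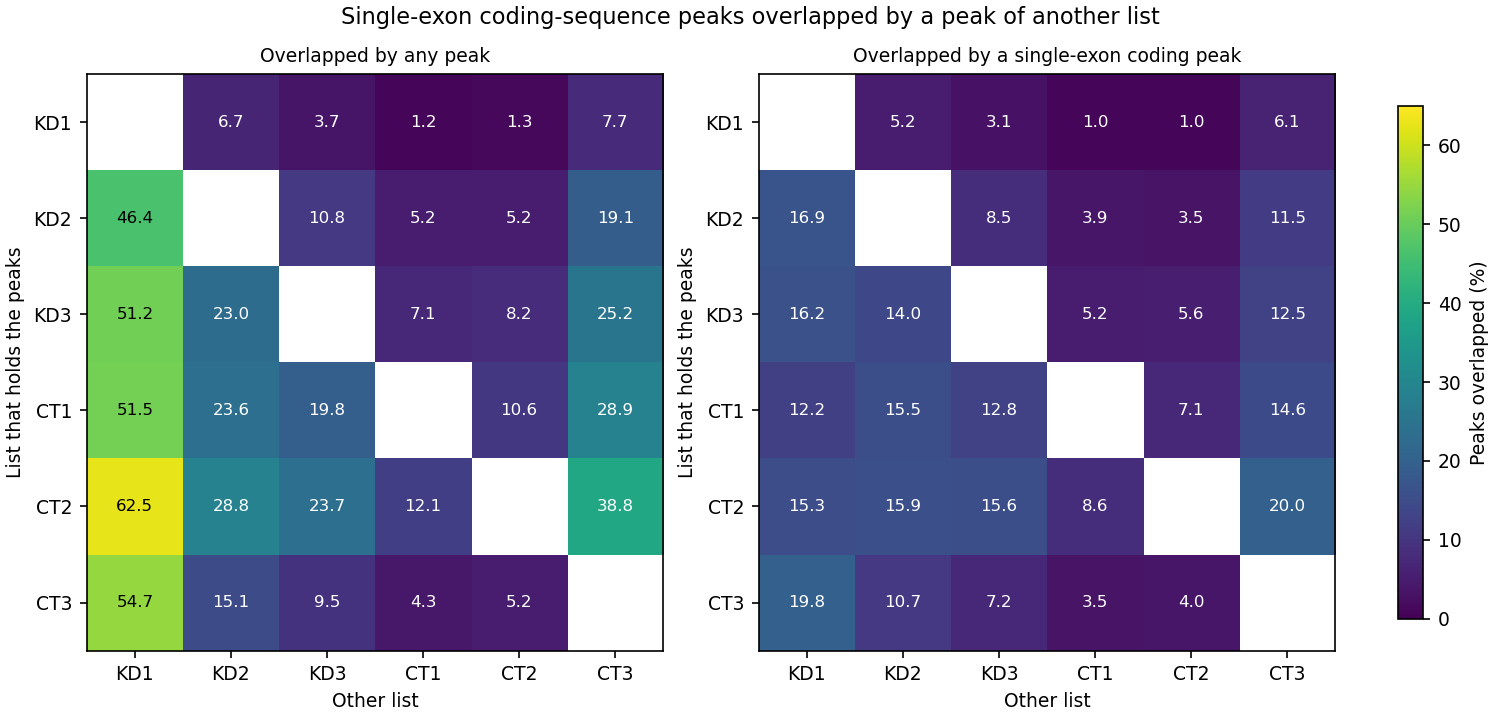
Percentage of the single-exon coding peaks of a list (rows) that share at least 1 base with any peak (left) or with a single-exon coding peak (right) of another list (columns), knockdown lists first. The KD1 column reaches 46.4% to 62.5% on the left and 12.2% to 19.8% on the right, and the KD1 row stays at or below 7.68%.

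Joined across lists by at least 1 shared base on the same strand, the single-exon coding peaks formed 20666 positions. Of these, 18557 (89.8%) came from 1 list and 10 (0.048%) from all 6. Over the joined positions of all peaks, 46182 (80.9%) came from 1 list and 369 (0.646%) from all 6. At 45 positions all 3 knockdown lists had a single-exon coding peak and no control list did, which is 0.218% of the 20666. The same count over the 57090 joined positions of all peaks was 229, or 0.401%. The reverse pattern held at 7 positions (0.0339%), against 40 of all positions (0.0701%). The shares among coding positions were lower, but they are not counted like those over all peaks. A coding position needs a single-exon coding peak in each list, while the background takes a peak of any class. Of the 45, 43 had no control peak of any kind over them, while all 7 control positions lay under a knockdown peak of another class. These counts depend on the lists used. The 45 became 149, 216 and 394 without KD1, KD2 or KD3 and 83 without CT3, and the 7 became 12 without KD2 and 50, 34 and 17 without CT1, CT2 or CT3. With 2 lists in a group, a position needs only those 2.

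The highest-ranked positions in all 6 lists lay in PHLDB1, PELP1, SRRM2 and ATN1. PHLDB1, a cytoskeletal adaptor at the cell cortex, carried its position on chromosome 11 (hg19, 118516116 to 118516465, plus strand), with best log2 enrichments of 2.15, 2.74 and 3.08 in KD1, KD2 and KD3, against 2.61, 3.16 and 2.77 in CT1, CT2 and CT3. The groups overlapped there. At PELP1, a coregulator of steroid receptors (chromosome 17, 4575188 to 4576012, minus strand), the values were 2.66, 2.70 and 2.78 in the knockdown lists, against 2.69, 2.39 and 2.59 in the control lists. SRRM2, a spliceosome protein with long serine-arginine repeats (chromosome 16, 2818506 to 2820466, plus strand), had 2.39, 2.46 and 2.06 in the knockdown lists, against 2.61, 2.52 and 2.88 in the control lists. Its control values all exceeded its knockdown values, a pattern among named positions that was not tested. In ATN1, a transcriptional corepressor (chromosome 12, 7045547 to 7046696, plus strand), they were 1.85, 2.11 and 1.82 in the knockdown lists, against 1.61, 2.39 and 1.93 in the control lists.

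Of the 10 shared positions, 5 were mitochondrial, in MT-ND1, MT-ND2, MT-ND3, MT-CO2 and MT-CYB, which encode respiratory chain subunits from genes without introns. The MT-ND1 position (chromosome M, 3307 to 4256, plus strand) was 950 nt long in every list. Its enrichment was 1.31, 1.00 and 0.90 in the knockdown lists, against 1.43, 1.27 and 1.24 in the control lists, at within-list percentiles from 5.21 in KD2 to 41.0 in CT1. MT-ND3 (chromosome M, 10109 to 10404) had 1.52, 1.40 and 0.83 in the knockdown lists, against 1.41, 1.23 and 1.30 in the control lists. For MT-CYB (chromosome M, 14747 to 15887) the values were 1.15, 1.27 and 0.71 in the knockdown lists, against 1.04, 1.28 and 1.21 in the control lists. ACTG1, cytoplasmic gamma-actin (chromosome 17, 79477953 to 79478874, minus strand), ranged from 0.70 to 1.66 in the knockdown lists, against from 0.51 to 0.94 in the control lists.

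Of the 45 positions with a single-exon coding peak in every knockdown list and no control list, those with the highest ranks included ERAP1, TOX2, HIST2H3C and RAI1. ERAP1, an aminopeptidase that trims peptides for antigen presentation (chromosome 5, 96129121 to 96129370, minus strand), had log2 enrichments of 3.65, 3.52 and 3.40 in KD1, KD2 and KD3. TOX2, an HMG-box protein (chromosome 20, 42694520 to 42694669, plus strand), had 2.80, 3.45 and 2.85, and RAI1, a chromatin regulator (chromosome 17, 17697172 to 17697521, plus strand), had 2.88, 3.34 and 2.74. HIST2H3C, a histone H3 gene (chromosome 1, 149812360 to 149812534, minus strand), had 3.26, 2.96 and 3.13. Its near-identical copy HIST2H3A is also among the 45, and reads from the copies could be split between them, so both are uncertain. No control list had a single-exon coding peak at any of these positions, which were chosen by that pattern.

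**Figure D4:**
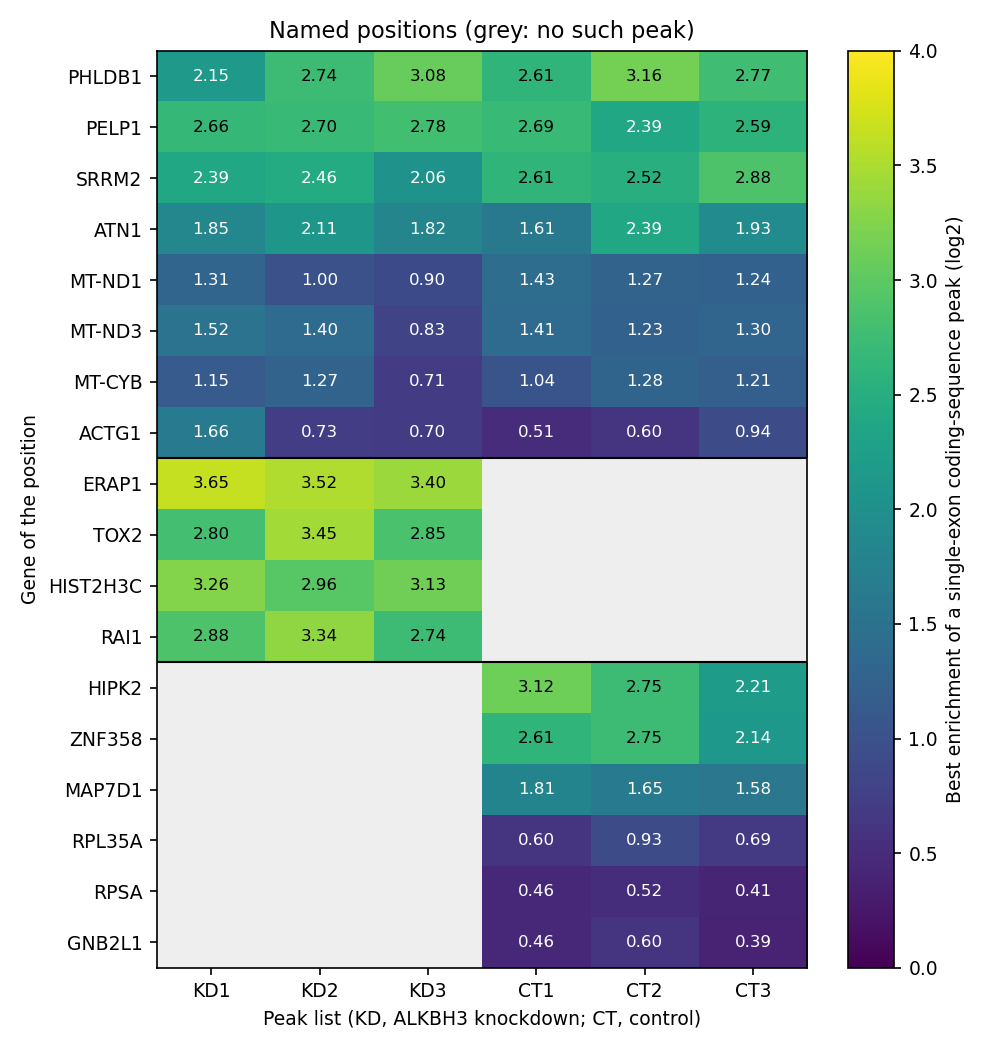
Best log2 enrichment of a single-exon coding peak in each list (columns, knockdown left of control) at the named positions (rows), with grey where a list has no such peak. The upper block lists 8 positions with such a peak in all 6 lists. The middle block holds 4 with such a peak in knockdown lists alone (2.74 to 3.65). The lower block holds 6 with such a peak in control lists alone (0.39 to 3.12), and KD1 had a peak of another class over all 6.

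The 7 positions of the reverse pattern lay in HIPK2, ZNF358, MAP7D1, RPL35A, RPSA, GNB2L1 and RPL23A, the last named to complete the count. HIPK2, a nuclear kinase (chromosome 7, 139299051 to 139299225, minus strand), had 3.12, 2.75 and 2.21 in CT1, CT2 and CT3. ZNF358, a zinc finger protein (chromosome 19, 7584462 to 7584536, plus strand), had 2.61, 2.75 and 2.14, and MAP7D1, a microtubule-associated protein (chromosome 1, 36643603 to 36643802, plus strand), had 1.81, 1.65 and 1.58. The ribosomal components RPL35A, RPSA and GNB2L1 (RACK1) stayed between 0.39 and 0.93 in the control lists. KD1 had a peak of another class over all 6 highest-ranked positions, KD3 over those of ZNF358 and MAP7D1, and KD2 over that of ZNF358.

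By gene, 6832 of the 10226 genes with any peak (66.8%) had a single-exon coding peak in at least 1 list, 3351 of them in 1 list and 52 in all 6. In 1300 genes such a peak occurred in at least 2 more knockdown than control lists, 19.0% of the 6832. For peaks of any kind, the same rule called 2055 genes, or 20.1%, so coding peaks were close to that background. The reverse held for 70 genes (1.02%), against 180 (1.76%) for any peak. Without KD1, KD2 or KD3 the 1300 became 228, 437 and 729. The 70 became 176, 131 and 116 without those lists, and 28, 30 and 18 without CT1, CT2 or CT3.

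Genes had a median of 2 such positions, and 235 genes with 10 or more held 15.6% of all positions. AHNAK, a giant scaffold protein, had the most with 40, and 39 of its 44 peaks came from KD1, against 1 each in KD2 and KD3 and 0, 0 and 3 in CT1, CT2 and CT3. PLEC, the cytolinker plectin, had 37 positions from 25, 9 and 4 peaks in the knockdown lists, against 0, 0 and 22 in the control lists. RNF213, a very large ubiquitin ligase, also had 37, from 27, 8 and 3 peaks in the knockdown lists, against 0, 0 and 4 in the control lists. HSPG2, the basement membrane protein perlecan, had 32 positions. The proliferation marker MKI67 and the spectraplakin MACF1 had 27 and 26, with 23 of 29 and 21 of 27 peaks from KD1.

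The 10 genes with the most positions also included AKAP9, an anchor of protein kinase A (25), PRRC2A, an RNA-binding protein (25), and FASN, the fatty acid synthase (24). PRRC2A and FASN had single-exon coding peaks in all 6 lists. PRRC2A had 11, 9 and 1 peaks in the knockdown lists, against 5, 2 and 11 in the control lists, so its groups overlapped. FASN had 6, 4 and 11 in the knockdown lists, against 2, 3 and 8 in the control lists. All 10 genes were found in 3 of 3 knockdown lists.

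Over all genes with a peak, 29.7% ± 17.0 had a single-exon coding one in a knockdown list and 12.05% ± 9.25 in a control list (SD, n = 3 each), which is the background for the gene groups below. The difference between these means is 17.6 percentage points. Zinc finger genes, whose finger repeats often lie in 1 long last exon, had medians of 2.55, 2.95 and 3.11 in KD1, KD2 and KD3 and of 2.61, 3.19 and 2.97 in CT1, CT2 and CT3. Each exceeded the median of all single-exon coding peaks of its list. Of the 273 zinc finger genes with a peak, 162 (59.3%) had a single-exon coding one, below the 66.8% over all genes, and they numbered 108, 48 and 34 in the knockdown lists, against 5, 11 and 45 in the control lists. The difference in mean share was 15.8 percentage points (exact permutation p = 0.2, adjusted p = 0.433), and 7.57 without KD1. ZNF292, a transcription factor with a long last exon, reached 4.70, 3.12 and 2.67 in the knockdown lists at best, against 3.19 in CT2 alone among the controls. Peaks of any kind lay in ZNF292 in 2 control lists.

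DNA repair genes had single-exon coding peaks in 27 of 28 members with a peak (96.4%, against 66.8% over all genes). They numbered 24, 15 and 11 in the knockdown lists, against 3, 0 and 15 in the control lists. The difference in mean share was 38.1 percentage points (exact permutation p = 0.3, adjusted p = 0.4875), against 17.6 over all genes. For DNA repair genes it was 14.3 at equal list length and 25 without KD1. BRCA2, a mediator of homologous recombination, had 4.69, 4.83 and 3.94 in KD1, KD2 and KD3, against 3.89 in CT3 and no such peak in CT1 and CT2. RIF1, a regulator of replication timing and end joining, had 2.49, 2.48 and 2.19 in the knockdown lists, against 2.72 in CT1, 2.85 in CT3 and none in CT2. PARP1, the sensor of DNA strand breaks, had 1.82, 1.20 and 0.98 in the knockdown lists, against 1.46 in CT3 alone. The mismatch repair gene MSH6 had 2.13, 2.00 and 1.41 in the knockdown lists, against 2.63 in CT3 alone, although 2 control lists had a peak of any kind in it.

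Of 31 genes known for very long exons that had a peak, 30 had a single-exon coding one, 29, 25 and 23 in the knockdown lists, against 8, 4 and 20 in the control lists. The mean share was 82.8% ± 9.86 in knockdown and 34.4% ± 26.9 in control lists (SD, n = 3 each, exact permutation p = 0.1, adjusted p = 0.433 over 13 gene lists). The direction was that of all genes, and the difference of 48.4 percentage points became 24.7 at equal list length. SRRM2 led the group with 22 positions, and DST, a cytoskeletal linker, and KMT2A, a histone methyltransferase, had peaks in 3 knockdown and 2 control lists each. Replication-dependent histones numbered 18, 11 and 7 in the knockdown lists, against 5, 3 and 6 in the control lists of 34 with a peak (difference in mean share 21.6 percentage points, exact permutation p = 0.1, adjusted p = 0.433). That difference was 7.84 at equal list length and 12.7 without KD1. The linker histone HIST1H1E had 3.04, 2.095 and 2.19 in the knockdown lists and no single-exon coding peak in a control list. A peak of another class lay in this gene in 1 control list. HIST2H2AA3 and HIST2H2AA4 are near-identical copies and are uncertain. The 21 clustered protocadherins counted in KD1 rest on 1 peak that carries all 21 gene names.

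Ribosomal protein genes, whose coding exons are short, ran opposite to the numbers over all genes. They numbered 5, 18 and 19 in KD1, KD2 and KD3 and 26, 20 and 27 in CT1, CT2 and CT3, of 81 with a peak, and all control lists stood above all knockdown lists. The mean shares were 17.3% ± 9.64 in knockdown and 30.0% ± 4.67 in control lists (SD, n = 3 each), a difference of -12.8 percentage points (exact permutation p = 0.1, the smallest possible, adjusted p = 0.433). Peaks of any kind were on 80, 58 and 63 of these genes in the knockdown lists, against on 73, 74 and 75 in the control lists, so that in KD1 nearly all carried peaks of another class. Of the 50 with a single-exon coding peak, 12 (24.0%) had it in at least 2 more control lists, against 1.02% of all genes. The difference became -7.20 without KD1 and 0.41 with at least 4-fold enrichment required. Median enrichments were 1.07, 0.60 and 0.58 in the knockdown lists, against 0.46, 0.61 and 0.46 in the control lists, below the median of all such peaks in every list. RPLP0, a stalk protein of the large subunit, had 0.45 in KD2 and in KD3 and none in KD1, against 0.46, 0.66 and 0.45 in CT1, CT2 and CT3.

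Mitochondrially encoded mRNAs had median enrichments of 0.81, 0.43 and 0.26 in KD1, KD2 and KD3 and of 1.14, 1.07 and 1.17 in CT1, CT2 and CT3, without overlap between the groups. They had 9, 11 and 16 single-exon coding peaks in the knockdown lists, against 5, 9 and 7 in the control lists, from 9 of 13 genes. Median lengths were 525, 250 and 125 nt in the knockdown lists, against 950, 271 and 700 nt in the control lists. Their part in the enrichment medians was not tested. MT-CO2, a cytochrome oxidase subunit, had 1 peak in each list, with 1.04, 0.69 and 0.38 in the knockdown lists, against 0.95, 1.03 and 0.87 in the control lists, and these overlapped. The contrast was seen after the values and was not tested.

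**Figure D5:**
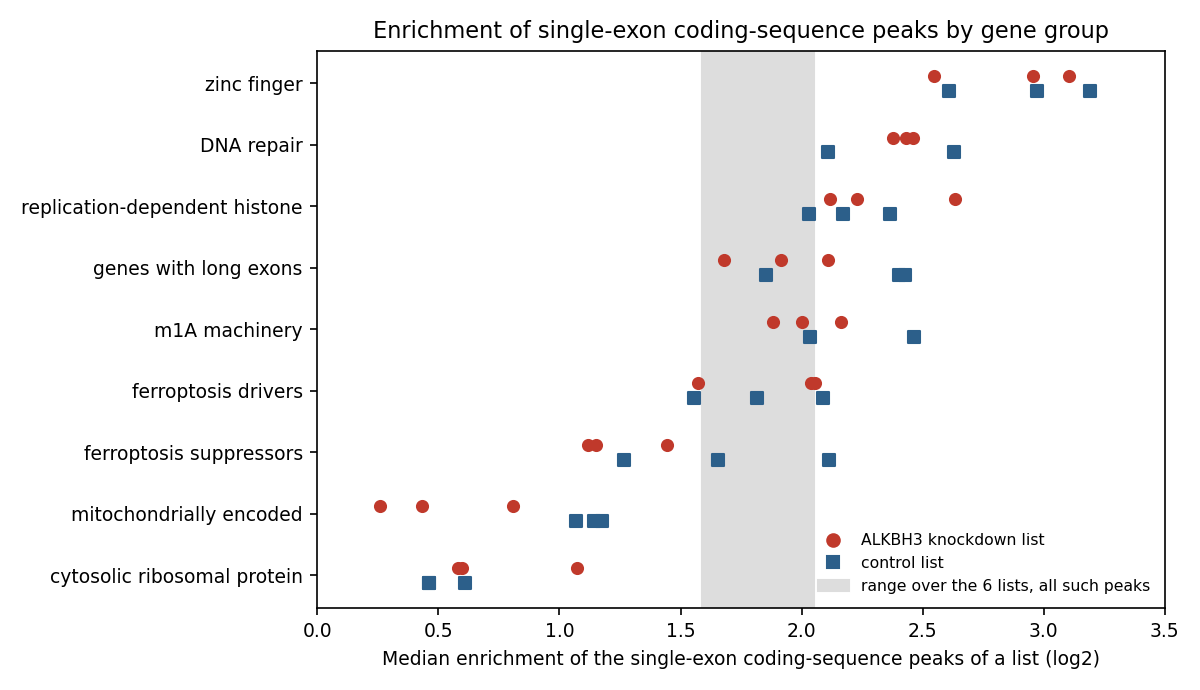
Median log2 enrichment of the single-exon coding peaks of 9 gene groups in each list, with red circles for knockdown lists and blue squares for control lists, and the grey band from 1.59 to 2.05 for the medians of all such peaks. Zinc finger genes lie right of the band in all 6 lists, and ribosomal protein and mitochondrially encoded genes lie left of it in all 6.

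Genes that write, erase or bind m1A had single-exon coding peaks in 9 of 10 members with a peak (90%, against 66.8% over all genes). They numbered 6, 5 and 3 in the knockdown lists, against 1, 0 and 3 in the control lists. The difference in mean share was 33.3 percentage points (exact permutation p = 0.2, adjusted p = 0.433), against 17.6 over all genes. For these m1A genes it was 6.67 at equal list length. ALKBH3 itself had 1, in KD1 (log2 enrichment 2.31), and peaks do not measure its mRNA, so the knockdown could not be checked. YTHDC1, a nuclear YTH reader, had 2.02, 2.12 and 2.65 in the knockdown lists and no single-exon coding peak in a control list. However, 1 control list had a peak of another class in the gene. YTHDF1, a cytoplasmic reader, had 2.30, 2.27 and 2.00 in the knockdown lists, against 2.17 in CT3 alone. TRMT10C, the mitochondrial tRNA methyltransferase, had 2.14 in KD1 and 2.39 in KD3, against 2.28 in CT3. YTHDF3 had them in 2 knockdown lists and no control list, although 3 control lists had a peak of another class in the gene.

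Ferroptosis suppressors numbered 12, 5 and 2 in the knockdown lists, against 1, 3 and 7 in the control lists of 26 with a peak, with overlapping groups (difference in mean share 10.3 percentage points, exact permutation p = 0.6, adjusted p = 0.65). The difference was -6.41 at equal list length and -0.64 without KD1. SLC3A2, the partner chain of the cystine transporter that erastin blocks, had 1.26 in KD1 and 1.21 in KD3, against 1.94 in CT2 and 3.03 in CT3. GPX4, which reduces lipid peroxides, had 0.73 in KD2 and 1.05 in CT3. Ferroptosis drivers numbered 13, 5 and 4 in the knockdown lists, against 2, 1 and 7 in the control lists of 19 (difference in mean share 21.1 percentage points, exact permutation p = 0.4, adjusted p = 0.52). The difference was 0 at equal list length and 6.14 without KD1. KEAP1, the adaptor that targets NRF2 for degradation, had 2.61 in KD1 and 3.80 in KD2, against 2.69 in CT3.

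Single-exon regulators and heat shock genes numbered 7, 6 and 5 in the knockdown lists, against 2, 1 and 8 in the control lists of 21 with a peak. The difference in mean share was 11.1 percentage points (exact permutation p = 0.4, adjusted p = 0.52), against 17.6 over all genes. For this group it was 1.59 at equal list length, 4.76 without CT2 and 21.4 without CT3. JUNB, an AP-1 subunit, had 2.62 in KD1 and 2.52 in KD2, against 2.34 in CT3. CEBPB, a leucine zipper transcription factor, had 1.83 in KD2 and 3.65 in KD3, against 2.07 in CT1 and 2.92 in CT3. HSPA1A and HSPA1B are near-identical copies and uncertain, and their values ranged from 0.31 to 0.71.

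The most enriched single-exon coding peak of each list lay in FAT4, an atypical cadherin, in KD1 (5.82), in ALB, serum albumin, in KD2 (13.25) and KD3 (9.51), in KRT8 in CT1 (5.54), in ERVW-1, an endogenous retroviral envelope gene, in CT2 (7.28) and in KRT19 in CT3 (6.86). The ALB peaks overlapped on chromosome 4 (74274402 to 74274664 in KD2, plus strand), and no control list had an ALB peak. KRT19, an epithelial keratin, had best enrichments of 5.50, 5.65 and 5.82 in KD1, KD2 and KD3, against 6.86 in CT3, with no such peak in CT1 and CT2.

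For the labelled epithelial line, KRT8 and KRT18 had a peak of some kind in all 6 lists and KRT19 in 5, EPCAM had one in 1 knockdown and 2 control lists, VIL1 in 2 knockdown lists, and the adhesion gene CDH1 in none. Of 18 markers of other cell types, 7 had a peak: COL1A1, COL1A2, CD68, HBA1, HBB, PDGFRB and ALB. The leukocyte marker PTPRC, the endothelial markers PECAM1, VWF and CDH5, and the T cell marker CD3E had none. Marker genes of other cell types with a single-exon coding peak numbered 3, 4 and 5 in the knockdown lists, against 1, 1 and 3 in the control lists. Their part in the counts above was not tested.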

How the data were processed

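For each IP sample the authors deposited a separate peak list whose values are log2 fold changes, p-values and false discovery rates. Every deposited p-value lies below 1e-10. The build hg19 and the tools HISAT2 2.1.0, Trimmomatic 0.32 and FastQC 0.11.7 are named per the submitters' processing notes, without their roles. Neither the peak caller nor the sides of the fold change are given in the sources used here. Per the labels' protocols, fragments had about 300 nt, which blurs positions. The lists hold no read counts, so depth is unknown.

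Rows were collapsed by chromosome, start and end. Region and block number gave the classes. Lists were compared by exact permutation tests (3 against 3) and within lists by exact sign-flip tests, each with Benjamini-Hochberg adjustment, in Python 3.11.15 with SciPy 1.17.1 and pandas 2.3.3. The calculations were tested on simulated data. Percentiles of enrichment are ranks within a list. Of 6832 gene names, 6319 matched a current symbol and 421 a synonym in RefSeq. Members and gene lists were chosen with earlier results of these data known.

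Named were ALKBH3, the 10 genes with most positions, the 8 highest-ranked positions in all lists and 6 per direction, up to 4 genes per gene list by number of lists, and the most enriched peak of each list. Y-linked genes were not named, and some genes that the rule chose are not reported here. Alternatives were equal list length, a minimum of 5 for the -log10 false discovery rate, a minimum of 4-fold enrichment, chromosome M or peaks with more than 1 gene name left out, the region of the first transcript row, leaving out single lists, a replicate block, a reciprocal overlap of at least 50%, other list differences and, added after the data were seen, within-list percentiles and the removal of peaks longer than their transcripts. Base composition was not analysed here.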

Additional observations from a re-analysis of the deposited data

How the results depend on the processing

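Of the 458 settings of results that answer a comparison, 411 kept their result. That meant the same direction and side of 0.05 or, for counts, a value within 1.5 times. The p-values were adjusted except for gene lists, the replicate block and percentiles. This count says little about stability, as no main comparison passed 0.05 after adjustment. Exact permutation of 3 lists against 3 cannot give p below 0.1, so there the side could not change. The minimum for the -log10 false discovery rate left the values as they were. Single-exon coding peaks minus 3′ UTR peaks in median enrichment ranged from -0.49 to -0.38 with 1 list left out, and was -0.28 with at least 4-fold enrichment and -0.30 at equal list length. With 5 lists the smallest sign-flip p is 0.0625.

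Positions in all knockdown and no control lists numbered 19 with at least 4-fold enrichment, 6 at equal list length, 6 with reciprocal overlap and 673 where 2 lists against 0 sufficed, and 47 to 394 with 1 list left out. For control they numbered 3, 0 and 88 under the first, second and last of these settings, and 7 to 50. Genes favouring knockdown numbered 763 with at least 4-fold enrichment, 318 at equal list length, 165 with 3 lists against 0 and 228 to 1939 with 1 list left out. Genes favouring control numbered 27, 126, 9 and 18 to 176. The cause of these shifts was not tested.

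Values that changed sign were these. At least 4-fold enrichment gave 0.63 percentage points for overlap against exon-junction peaks and -1.58 against 3′ UTR peaks, and knockdown minus control shares of 0.41 for ribosomal protein genes and -1.28 for ferroptosis suppressors. Equal list length gave -11.2 for overlap against 3′ UTR peaks (main value 8.79, 5 of 6 lists higher, exact sign-flip p = 0.1875, adjusted p = 0.258) and -6.85 for those of 25 nt or less (main value 11.5). It also gave differences in mean share of genes of -28.2 percentage points for mitochondrially encoded genes (main value 10.3) and -6.41 for ferroptosis suppressors. Single genes were measured as the percentage of knockdown lists minus that of control lists with a single-exon coding peak. That value became -33.3 each for MSH6, PLEC, RIF1 and RPL3 at equal list length. For RPS16 it moved to 33.3 without peaks longer than their transcripts. Reciprocal overlap gave -0.64 and -0.25 for the 2 overlaps against 3′ UTR peaks. With 1 list left out those 2 ranged from -2.56 to 12.3 and from -1.06 to 13.8, negative without KD1. Ferroptosis suppressors ranged from -0.64 to 18.6 and the transcript length difference from -25.7 to 36.9 nt.

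Replicate numbers did not mark the most similar lists in 2 of 3 pairs: KD1, KD2 and KD3 all shared most positions with CT3 (Jaccard 4.72%, 5.79% and 5.09%). With the replicate block the share difference of 9.51 had an exact sign-flip p of 0.25. That is the smallest that 3 pairs allow, so no call could change.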
